A study of Mus musculus with 18 samples.

Results

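The dual-specificity MAPK phosphatases are a family of enzymes that end the signals of the mitogen-activated protein kinases (MAPKs) ERK, p38 and JNK. They remove the phosphates from both the threonine and the tyrosine of the kinases' activation loop, and several of them are themselves transcribed in response to the kinases they switch off, which makes them negative feedback regulators. In dendritic cells (DCs) and macrophages they are known for limiting the length of MAPK signals and the output of cytokines after microbial products such as lipopolysaccharide (LPS) are sensed. The members were the 10 genes whose symbol in the deposited table is *Dusp1*, *Dusp2*, *Dusp3*, *Dusp4*, *Dusp5*, *Dusp6*, *Dusp7*, *Dusp8*, *Dusp10* or *Dusp16*. Each symbol was found, so that 10 of 62197 genes were described, and all 10 passed the filter on low values, 10 or more normalized counts in 3 or more libraries, as did 17875 genes in all.

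The RNA was measured by bulk RNA-seq in bone marrow-derived DCs of mice, which were grown for 10 days with granulocyte-macrophage colony-stimulating factor from transfected J558 cells. Marrow came from animals 6 to 8 weeks of age on a C57BL/6 background, and male or female mice were used. cPLA_2_ KO cells came from *Pla2g4a* fl/fl animals that carried *Itgax-cre*, in which Cre is made in Cd11c-expressing cells, and cPLA_2_ WT cells came from littermates or age-matched controls. Cells of the culture that do not express Cd11c are not targeted by this Cre, and *Pla2g4a* encodes the phospholipase cPLA_2_. For each genotype 3 libraries were made from nonconfined cells, 3 from cells held at a height of 3 µm and collected 4 h after confinement, and 3 from LPS-treated cells, which makes 18 libraries in 6 conditions. LPS was given at 100 ng ml-1 for 30 min per the labels and was followed by culture until the next day, so that confined and LPS-treated cells differ in time as well as in stimulus. The treatment protocol deposited with each of the 18 libraries describes LPS, also for nonconfined and confined cells, and the titles and treatment entries were followed here. The study's methods give a shorter LPS pulse. Nonconfined cells were collected when the culture ended. The labels do not say whether the 3 libraries of a condition came from separate animals or cultures, and p-values measure the spread between these libraries. The labels name 2 kits for making the libraries without saying which library had which, so that a part of the kit in the comparisons could not be tested. Recovered reads on genes ranged from 33027230 to 61300021 per library. Values are normalized counts, that is gene counts divided by a size factor for each library, and are not scaled for gene length.

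The targeted gene was examined first. *Pla2g4a* was present at 697, 686 and 770.4 normalized counts in nonconfined cPLA_2_ WT libraries and at 548, 542 and 533 in nonconfined cPLA_2_ KO libraries. In confined cells the values were 1369, 1430.3 and 1321 in cPLA_2_ WT and 923, 871 and 919.5 in cPLA_2_ KO libraries. The genotypes did not overlap within either condition, although the transcript was reduced and not absent. In LPS-treated cells, by contrast, *Pla2g4a* stood at 1005, 969 and 967 in the libraries labelled cPLA_2_ WT and at 1065, 1032 and 1028 in those labelled cPLA_2_ KO, so that the labels were not reflected in the targeted gene. *Ddx3y*, a gene of the Y chromosome, was at 0 to 3.05 normalized counts in the 6 nonconfined and confined cPLA_2_ WT libraries and at 874 to 1036 in the 6 cPLA_2_ KO libraries. In the LPS-treated libraries it was at 1271, 0 and 662 in replicates 1, 2 and 3 labelled cPLA_2_ WT and at 2.12, 1476 and 783 in those labelled cPLA_2_ KO. *Acot1*, an acyl-CoA thioesterase, was at 0 to 6.76 in nonconfined and confined cPLA_2_ WT libraries and at 377 to 626 in cPLA_2_ KO libraries, but at 54.9, 0.915 and 33.6 in the LPS-treated libraries labelled cPLA_2_ WT and at 0, 49.2 and 40.7 in those labelled cPLA_2_ KO. *Xist*, the transcript of the inactive X chromosome, was present in every library, at 12153 to 33681. Genotype and sex of the donors cannot be told apart in the comparisons of cPLA_2_ KO with cPLA_2_ WT cells. The LPS-treated groups are called by their labels below, no genotype effect is read from them, and the change with LPS is given mainly over both labels together.

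Markers of DCs were abundant in all conditions. The 9 DC markers summed to 500656 ± 13735 normalized counts (mean ± SD, n = 3) without and 464753 ± 16045 with confinement in cPLA_2_ WT libraries, and to 606036 ± 20190.3 and 425418 ± 8716 in cPLA_2_ KO libraries, with *Cd74*, the invariant chain of MHC class II, as the most abundant. *Ccr7* had means of 15884 and 32945 in cPLA_2_ WT but 16451 and 8919 in cPLA_2_ KO libraries. *H2-Eb1* also had a higher mean with confinement in cPLA_2_ WT libraries, and the other DC markers had lower ones in both genotypes. In nonconfined cells *Itgax* had a lower mean in cPLA_2_ KO (5175) than in cPLA_2_ WT libraries (6281), and the other DC markers had higher ones. The study's methods state that nonadherent granulocytes are lost during culture, that macrophages stay on the plate, that the semiadherent cells were recovered, and that most of them carry Cd11c. Markers of other myeloid cells were present in the RNA, and their sums differed between the conditions. The 10 neutrophil markers, led by *S100a9*, summed to 243705 ± 2560.0 without and 149016 ± 4968 with confinement in cPLA_2_ WT libraries, and to 355071 ± 19154 and 337663 ± 8460.4 in cPLA_2_ KO libraries. The 5 eosinophil markers, led by *Prg2*, summed to 28048 ± 190.2, 7271 ± 309, 65571 ± 2206 and 16442 ± 475 in the same order. Among the 7 mast cell and basophil markers, *Hdc*, the histidine decarboxylase gene, was at 735 ± 7.42, 12369.5 ± 271, 1040.0 ± 51.1 and 1458 ± 33.5 in this order, whereas the other 6 markers summed to 6962 ± 121, 3485 ± 69.1, 10190.5 ± 248 and 5513 ± 89.0. Of these 6, *Kit* had higher means with confinement, 737 and 951 in cPLA_2_ WT and 813 and 1414 in cPLA_2_ KO libraries, and the others had lower ones in both genotypes. The neutrophil markers all had lower means with confinement in cPLA_2_ WT libraries. In cPLA_2_ KO libraries *S100a8*, *S100a9* and *Ngp* had higher means with confinement, and the other neutrophil markers had lower ones. Among the eosinophil markers, *Prg2*, *Epx* and *Ear1* had lower means with confinement in both genotypes. *Siglecf* had higher ones, 1402 and 1448 in cPLA_2_ WT and 943 and 1103 in cPLA_2_ KO libraries. *Ccr3* had means of 85.4 and 190 in cPLA_2_ WT but 229 and 61.3 in cPLA_2_ KO libraries. In the LPS-treated libraries, labelled cPLA_2_ WT and then cPLA_2_ KO, the sums were 706322 ± 56082 and 708107 ± 47536 for DCs, 298512 ± 9931 and 295983 ± 17504 for neutrophils, 31594 ± 8242 and 31610.0 ± 8149 for eosinophils, 10841 ± 1523 and 10976 ± 1797 for *Hdc*, and 6719.9 ± 131 and 6861 ± 374 for the other 6 mast cell and basophil markers. The 7 macrophage markers, of which *Adgre1* was the most abundant over all libraries, summed to 15879 without and 14179 with confinement in cPLA_2_ WT libraries. The sums were 20791 and 17827 in cPLA_2_ KO libraries, and 30221 and 29243 in the LPS-treated libraries labelled cPLA_2_ WT and cPLA_2_ KO. With confinement, *Mrc1* and *Marco* had higher means in both genotypes, and the other macrophage markers had lower ones. With LPS, *Adgre1* and *Marco* had higher means than in nonconfined cells for both labels, and the other macrophage markers had lower ones. The 5 lymphocyte markers, with *Cd3d* the most abundant over all libraries, lay between 79.0 and 214 over the 6 conditions. No marker was at 0 in all 18 libraries. Mitochondrial genes held 3.21 ± 0.137% of the reads recovered on genes without and 2.33 ± 0.0494% with confinement in cPLA_2_ WT libraries (mean ± SD, n = 3), 3.28 ± 0.0578% and 2.54 ± 0.248% in cPLA_2_ KO libraries, and 2.4 ± 0.115% and 2.56 ± 0.0698% in the LPS-treated libraries labelled cPLA_2_ WT and cPLA_2_ KO. Fewer cells of a type and less RNA per cell cannot be told apart in bulk RNA, and the part of these other cells and of this share in the results below was not tested.

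Most of the phosphatase transcripts rose with confinement and with LPS, and 5 of them rose less with confinement in cPLA_2_ KO cells. To set genes of unequal length side by side, normalized counts were divided by the length of the canonical transcript. The 10 members together reached 3411 ± 69.6 normalized counts per kilobase in nonconfined cPLA_2_ WT cells (mean ± SD, n = 3) and 3462 ± 23.7 in nonconfined cPLA_2_ KO cells. Confined cPLA_2_ WT cells held 12567 ± 428 and confined cPLA_2_ KO cells 5778 ± 198, with no overlap between libraries. The libraries labelled LPS cPLA_2_ WT and LPS cPLA_2_ KO held 12229.7 ± 521 and 12151 ± 320.1. The make-up of the pool differed between the conditions as well. The 4 nuclear members *Dusp1*, *Dusp2*, *Dusp4* and *Dusp5* made up 43.9% ± 1.43 of the pool per kilobase in nonconfined cPLA_2_ WT cells, 81.2% ± 0.186 with confinement, and 65.4% ± 1.01 in cPLA_2_ KO cells with confinement. The cytoplasmic ERK phosphatases *Dusp6* and *Dusp7* went from 28.9% ± 1.07 in nonconfined to 4.36% ± 0.0976 in confined cPLA_2_ WT cells and stood at 10.2% ± 0.553 in confined cPLA_2_ KO cells. *Dusp5* was the most abundant member per kilobase in each of the 6 conditions and *Dusp8* the least.

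**Figure D1:**
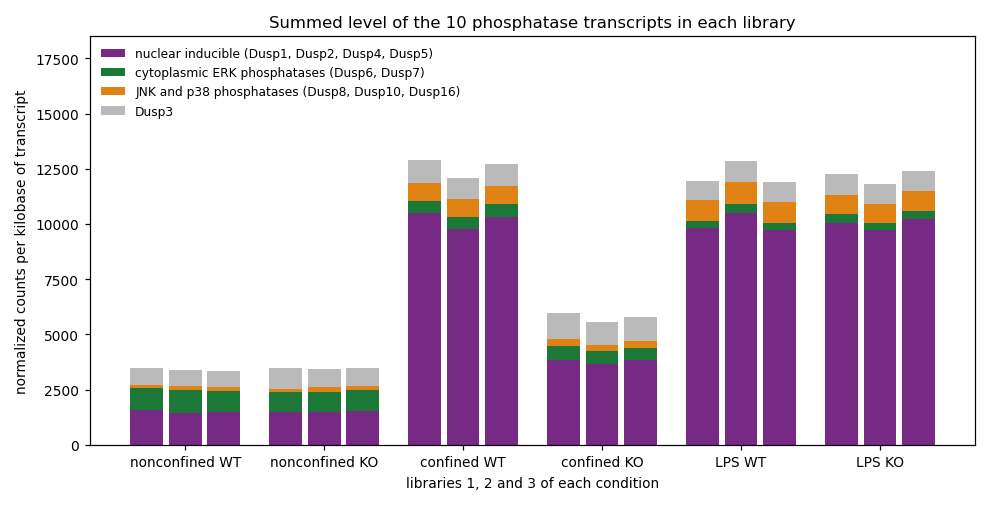
Summed level of the 10 phosphatase transcripts in each of the 18 libraries, in normalized counts per kilobase of canonical transcript, stacked by the members' site and target kinase, with LPS-treated libraries placed by their labels. The mean sum was 3411 in nonconfined cPLA_2_ WT libraries, and with confinement it was 12567 in cPLA_2_ WT but 5778 in cPLA_2_ KO libraries, and the nuclear members took most of the rise.

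Comparing confined with nonconfined cells asks how the transcripts differ with confinement within a genotype. Confined cells were also handled for confinement and collected hours after it, and no library was held at another height. Deformation, handling and time therefore cannot be told apart. In cPLA_2_ WT cells 8 of 10 members were higher at an adjusted p under 0.05, against 28.2% of the 17875 genes tested, and 2 were lower, against 28.4%. Past a 2-fold change, 7 members were higher, against 11.4% of genes tested, and *Dusp6* was lower, against 7.62%. *Dusp10* was at 0.82 with the same total per library and also fell short of 2-fold without nonconfined cPLA_2_ WT replicate 1 or confined cPLA_2_ WT replicate 1. In cPLA_2_ KO cells 8 members were higher and 2 lower as well, against 22.8% and 23.4% of genes tested. Past a 2-fold change, 6 members were higher in cPLA_2_ KO cells, against 6.43% of genes, of which *Dusp2* fell short without confined cPLA_2_ KO replicate 3. No member was lower past a 2-fold change by limma, by limma's unadjusted p or by edgeR or DESeq2, against 5.53% of genes by limma. The test of the difference between these changes, the interaction of confinement and genotype, called 5 members with a smaller rise in cPLA_2_ KO cells, against 15.6% of genes tested with a negative interaction. These were *Dusp1*, *Dusp2*, *Dusp4*, *Dusp5* and *Dusp16*, and each interaction was past a 2-fold change, against 6.56% of genes. With the same total per library that of *Dusp5* was at -0.85, still called but short of 2-fold, which left 4. *Dusp6* was called in the other direction, with a smaller fall in cPLA_2_ KO cells, against 10.2% of genes, and no member in that direction was past a 2-fold change by limma, by its unadjusted p or by edgeR or DESeq2, against 1.11% of genes by limma. The 10 members had a median log2 fold change of 2.39 for cPLA_2_ WT cells and 1.16 for cPLA_2_ KO cells, where the medians of all genes tested were -0.01 and 0.01. Log2 fold changes are those of normalized count + 1 and understate the change of genes with few counts.

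**Figure D2:**
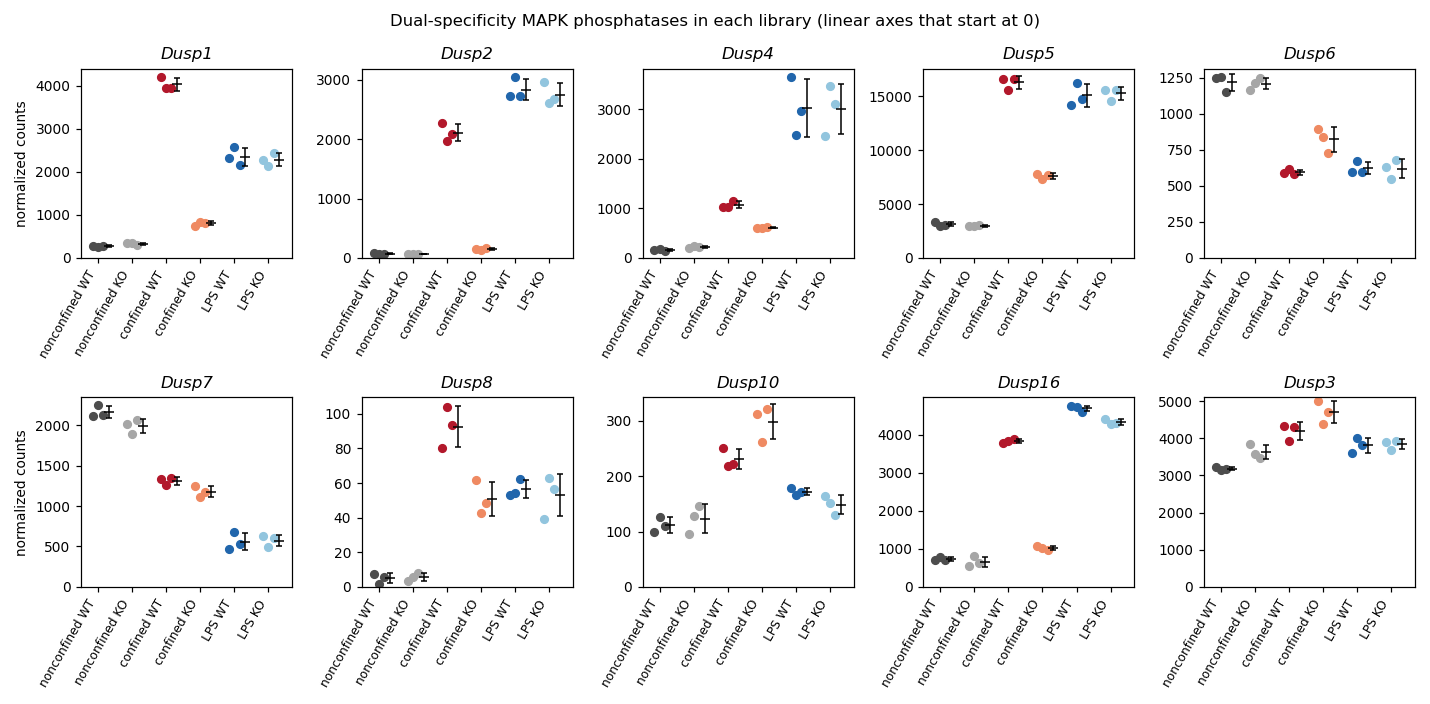
Normalized counts of the 10 phosphatases in each library, 3 points per condition, with the mean and SD as the black mark beside them, on linear axes that start at 0. With confinement *Dusp2* reached a mean of 2111 in cPLA_2_ WT but 143 in cPLA_2_ KO libraries, whereas *Dusp10* stood at 230.5 and 299, and the LPS-treated libraries are placed by their labels.

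The nuclear phosphatases rose with confinement in both genotypes, and less in cPLA_2_ KO cells. *Dusp1* (identifier GSMG0024103, minus strand of chromosome 17 of GRCm39, 26724565 to 26727450) encodes an enzyme that prefers p38 and JNK and restrains cytokine production. It had 277, 246 and 287 normalized counts in nonconfined cPLA_2_ WT libraries, 4199, 3940.2 and 3953 in confined cPLA_2_ WT, 347, 343 and 309 in nonconfined cPLA_2_ KO and 749, 840.3 and 819 in confined cPLA_2_ KO libraries. The libraries labelled LPS cPLA_2_ WT had 2311, 2573 and 2165 and those labelled LPS cPLA_2_ KO 2273, 2142 and 2434. Confined cPLA_2_ WT cells thus had the highest *Dusp1* of the 6 conditions, above each LPS-treated library, and confined cPLA_2_ KO cells lay between nonconfined and LPS-treated cells without overlap. The log2 fold change with confinement was 3.90 ± 0.08 (SE, limma adjusted p = 3.2e-20) in cPLA_2_ WT cells, a 14.9-fold rise, and 1.27 ± 0.08 (SE, limma adjusted p = 1.97e-11) in cPLA_2_ KO cells, a 2.41-fold rise. The interaction was -2.63 ± 0.11 (SE, limma adjusted p = 3.35e-14). Confined cPLA_2_ WT libraries also exceeded those labelled LPS cPLA_2_ WT, with a log2 difference of 0.78 ± 0.08 (SE, limma adjusted p = 2.83e-08).

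*Dusp2* (GSMG0030734, plus strand of chromosome 2, 127178078 to 127180296), a phosphatase of ERK and p38 found mainly in cells of the blood lineage, showed the widest split between genotypes. Its normalized counts were 78.5, 74.2 and 71.7 in nonconfined cPLA_2_ WT and 2269, 1972 and 2093 in confined cPLA_2_ WT libraries. In cPLA_2_ KO cells they were 65.0, 66.1 and 74.7 without and 145, 126 and 159 with confinement. LPS-treated libraries had 2734, 3039.8 and 2735 when labelled cPLA_2_ WT and 2963, 2605 and 2681 when labelled cPLA_2_ KO. Confined cPLA_2_ KO cells therefore stayed close to the nonconfined range, although no library overlapped it, whereas confined cPLA_2_ WT cells came near the LPS-treated ones. The rise was 27.8-fold in cPLA_2_ WT cells, with a log2 fold change of 4.80 ± 0.09 (SE, limma adjusted p = 2.44e-20), and 2.07-fold in cPLA_2_ KO cells, 1.05 ± 0.09 (SE, limma adjusted p = 7.76e-09). The interaction of -3.75 ± 0.13 (SE, limma adjusted p = 1.96e-15) was the largest among the 10 members in absolute size, and lay at the percentile of 0.92 of all genes tested.

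*Dusp4* (GSMG0053226, plus strand of chromosome 8, 35274449 to 35287101), whose product acts on ERK and JNK in the nucleus, responded more to LPS than to confinement. It had 152, 188 and 150.4 normalized counts in nonconfined cPLA_2_ WT, 1037, 1031 and 1158 in confined cPLA_2_ WT, 211, 237 and 217 in nonconfined cPLA_2_ KO and 599, 606 and 619 in confined cPLA_2_ KO libraries. The LPS-treated libraries varied more, with 3644, 2469.5 and 2959 when labelled cPLA_2_ WT and 2465, 3461 and 3109 when labelled cPLA_2_ KO, and each of them exceeded every confined library. The 2 lowest LPS values came from replicate 2 of those labelled cPLA_2_ WT and replicate 1 of those labelled cPLA_2_ KO, the same 2 that had the lowest *Ddx3y*. The log2 fold change with confinement was 2.72 ± 0.12 (SE, limma adjusted p = 4.85e-14) for cPLA_2_ WT cells and 1.45 ± 0.12 (SE, limma adjusted p = 3.93e-09) for cPLA_2_ KO cells, with an interaction of -1.26 ± 0.17 (SE, limma adjusted p = 8.79e-06). Confined cPLA_2_ WT libraries were below those labelled LPS cPLA_2_ WT, with a log2 difference of -1.47 (SE 0.12, limma adjusted p = 2.23e-09).

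*Dusp5* (GSMG0027853, plus strand of chromosome 19, 53517576 to 53530240) encodes a nuclear phosphatase specific for ERK, which it also anchors in the nucleus. Normalized counts were 3315, 2984 and 3079.7 in nonconfined cPLA_2_ WT, 16622, 15634 and 16669.5 in confined cPLA_2_ WT, 2959, 2945 and 3107 in nonconfined cPLA_2_ KO and 7827, 7332 and 7699 in confined cPLA_2_ KO libraries. The libraries labelled LPS cPLA_2_ WT had 14242, 16294 and 14799.8 and those labelled LPS cPLA_2_ KO 15641, 14603 and 15647. Confined cPLA_2_ WT and LPS-treated libraries overlapped, and confined cPLA_2_ KO libraries lay between them and the nonconfined ones. The rise was 5.22-fold in cPLA_2_ WT and 2.54-fold in cPLA_2_ KO cells, with log2 fold changes of 2.38 ± 0.05 (SE, limma adjusted p = 2.26e-19) and 1.34 ± 0.05 (SE, limma adjusted p = 1.58e-14). The interaction was -1.04 ± 0.07 (SE, limma adjusted p = 3.5e-10). Because 52.3% of the family's normalized counts per kilobase in confined cPLA_2_ WT cells and 53.2% in confined cPLA_2_ KO cells were *Dusp5*, its share of the pool was nearly the same in both genotypes while its level was not.

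The cytoplasmic ERK phosphatases fell. *Dusp6* (GSMG0004960, plus strand of chromosome 10, 99099090 to 99103350), a feedback inhibitor whose transcription is driven by ERK in many tissues, had 1246, 1258 and 1149 normalized counts in nonconfined cPLA_2_ WT and 589, 615 and 582 in confined cPLA_2_ WT libraries. In cPLA_2_ KO cells it had 1167, 1216 and 1247 and 898, 842 and 726, respectively, and the LPS-treated libraries ranged from 548 to 679.8. Confined cPLA_2_ WT and LPS-treated cells shared the lowest range, and confined cPLA_2_ KO cells stood above the confined cPLA_2_ WT libraries. The log2 fold change with confinement was -1.03 ± 0.08 (SE, limma adjusted p = 9.46e-10) for cPLA_2_ WT cells and -0.56 ± 0.08 (SE, limma adjusted p = 1.23e-05) for cPLA_2_ KO cells, and the interaction was 0.47 ± 0.12 (SE, limma adjusted p = 0.00543). *Dusp7* (GSMG0057406, plus strand of chromosome 9, 106245829 to 106252920), its closest relative, had 2121, 2255 and 2128 in nonconfined cPLA_2_ WT, 1340.3, 1259 and 1348 in confined cPLA_2_ WT, 2014, 1897 and 2063 in nonconfined cPLA_2_ KO and 1248, 1107 and 1176 in confined cPLA_2_ KO libraries. Here LPS gave the lowest values, 473 to 674. The log2 fold change with confinement was -0.72 ± 0.10 (SE, limma adjusted p = 2.36e-06) for cPLA_2_ WT cells, and -0.76 ± 0.10 (SE, limma adjusted p = 2.1e-06) for cPLA_2_ KO cells. The interaction was -0.04 with a 95% interval of -0.33 to 0.25 and did not pass the test.

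The phosphatases of JNK and p38 differed among themselves. *Dusp16* (GSMG0047475, minus strand of chromosome 6, 134692431 to 134769592), a JNK phosphatase that shuttles between nucleus and cytoplasm, also rose less in cPLA_2_ KO cells. It had 709, 782 and 694 normalized counts in nonconfined cPLA_2_ WT, 3792, 3830.5 and 3882 in confined cPLA_2_ WT, 559, 813 and 624 in nonconfined cPLA_2_ KO and 1087, 1012 and 979 in confined cPLA_2_ KO libraries, and 4284 to 4746 after LPS. Its log2 fold change amounted to 2.40 ± 0.09 (SE, limma adjusted p = 1.23e-15) for cPLA_2_ WT cells and 0.64 ± 0.09 (SE, limma adjusted p = 3.84e-06) for cPLA_2_ KO cells, with an interaction of -1.76 ± 0.12 (SE, limma adjusted p = 2.95e-10). *Dusp10* (GSMG0001306, plus strand of chromosome 1, 183766578 to 183807833), which acts on p38 and JNK, was highest in confined cPLA_2_ KO libraries, which lay above the confined cPLA_2_ WT ones by a difference of 0.37 on the log2 scale that did not pass the test (limma adjusted p = 0.06). It was called with the filter at 100, the same total per library, DESeq2 or the compared groups alone, and without confined cPLA_2_ KO replicate 2, with adjusted p-values of 0.0073 to 0.0464. Its values were 98.3, 127 and 110.1 in nonconfined cPLA_2_ WT, 251, 219 and 222 in confined cPLA_2_ WT, 95.6, 128 and 147 in nonconfined cPLA_2_ KO and 312, 262 and 322 in confined cPLA_2_ KO libraries. The change on the log2 scale was 1.04 ± 0.15 (SE, limma adjusted p = 4.8e-06) for cPLA_2_ WT cells and 1.29 ± 0.15 (SE, limma adjusted p = 5.03e-07) for cPLA_2_ KO cells, and the interaction, 0.24 with a 95% interval of -0.20 to 0.69, did not pass the test. *Dusp8* (GSMG0052760, minus strand of chromosome 7, 141633224 to 141649021), a JNK phosphatase best known from brain and heart, was near the detection limit without a stimulus. It had 7.62, 1.71 and 5.9 normalized counts in nonconfined cPLA_2_ WT and 3.13, 5.59 and 7.76 in nonconfined cPLA_2_ KO libraries, against 80.2, 104 and 93.6 in confined cPLA_2_ WT and 61.5, 42.7 and 48.3 in confined cPLA_2_ KO libraries. The rise passed the test in both genotypes, with log2 fold changes of 4.10 ± 0.38 (SE, limma adjusted p = 6.29e-09) and 3.05 ± 0.38 (SE, limma adjusted p = 1e-06), and the interaction of -1.05 had a 95% interval of -2.16 to 0.06 and did not pass the test (limma adjusted p = 0.165). Confined cPLA_2_ KO libraries lay below confined cPLA_2_ WT libraries without overlap, with a log2 difference of -0.86 (limma adjusted p = 0.0785). This difference was called by edgeR (adjusted p = 0.0149) and DESeq2 (adjusted p = 0.0046), and by limma with a pseudocount of 5 (adjusted p = 0.0188) or the compared groups alone (adjusted p = 0.00914).

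*Dusp3* (GSMG0010054, minus strand of chromosome 11, 101861969 to 101875625) encodes a small atypical phosphatase of ERK and JNK that lacks the kinase-binding domain of the other members. It was expressed in all conditions with small changes, from 3147 to 3215 normalized counts in nonconfined cPLA_2_ WT libraries to 4392 to 4997 in confined cPLA_2_ KO libraries, which were the highest. The log2 fold change with confinement was 0.40 ± 0.06 (SE, limma adjusted p = 3e-06) for cPLA_2_ WT cells and 0.37 ± 0.06 (SE, limma adjusted p = 1.28e-05) for cPLA_2_ KO cells. The interaction was -0.03 with a 95% interval of -0.19 to 0.14, so that it did not pass the test.

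Comparing cPLA_2_ KO with cPLA_2_ WT cells in the same state asks what differs between the genotypes directly. In nonconfined cells 3 members were higher in cPLA_2_ KO libraries, against 4.78% of genes tested, and none was lower by limma, by its unadjusted p, by edgeR or by DESeq2, against 4.11% of genes by limma. These were *Dusp1* (0.30 on the log2 scale, limma adjusted p = 0.0168), *Dusp3* (0.19, limma adjusted p = 0.0373) and *Dusp4* (0.44, limma adjusted p = 0.0281). The libraries of these genes did not overlap between the genotypes. Those of *Dusp7*, lower in cPLA_2_ KO cells but not called (-0.12, limma adjusted p = 0.521), did not overlap either. The share of all genes without overlap was not counted. The calls of *Dusp1*, *Dusp3* and *Dusp4* were not stable. Without nonconfined cPLA_2_ KO replicate 1, 0 of the 3 calls held, with adjusted p-values of 0.0824, 0.19 and 0.0605. Without any 1 of the 3 nonconfined cPLA_2_ WT replicates 1 call held, and without nonconfined cPLA_2_ KO replicate 3 there were 2. The call of *Dusp4* also ended with edgeR (adjusted p = 0.0867), and that of *Dusp3* with the same total per library (limma adjusted p = 0.074). Without nonconfined cPLA_2_ KO replicate 2 the call of *Dusp4* ended (limma adjusted p = 0.0735), and *Dusp16*, at -0.15 with all libraries, was called lower at -0.30 (limma adjusted p = 0.0035). In confined cells 5 members were lower in cPLA_2_ KO libraries, against 20.6% of genes tested, and 2 were higher, against 18.8%, while edgeR and DESeq2 each called 6 lower, *Dusp8* among them. *Dusp7*, at -0.16, was called lower only with the compared groups alone (limma adjusted p = 0.0479). The 5 that limma called lower were again *Dusp1*, *Dusp2*, *Dusp4*, *Dusp5* and *Dusp16*, of which 4 were past a 2-fold change, against 7.31% of genes. With the same total per library *Dusp5* was at -0.94 and 3 were. No member was higher past a 2-fold change by limma, by its unadjusted p, by edgeR or by DESeq2, against 2.79% of genes by limma. The log2 differences were -3.88 for *Dusp2*, -2.33 for *Dusp1*, -1.90 for *Dusp16*, -1.10 for *Dusp5* and -0.82 for *Dusp4*, with limma adjusted p-values of 1.13e-18 to 1.54e-05. *Dusp6* was higher by 0.46 (limma adjusted p = 0.000156) and *Dusp3* by 0.16 (limma adjusted p = 0.0242), a call that ended with TMM scaling, with edgeR and without confined cPLA_2_ WT replicate 2, confined cPLA_2_ KO replicate 1 or confined cPLA_2_ KO replicate 3, with adjusted p-values of 0.0608, 0.0619, 0.143, 0.138 and 0.0616. The summed neutrophil, eosinophil and macrophage markers were also higher in confined cPLA_2_ KO than in confined cPLA_2_ WT libraries, as given above. *Hdc* and the summed DC markers were lower, and the other mast cell and basophil markers summed higher. *Ccr7*, part of the DC sum, had means of 8919 in confined cPLA_2_ KO and 32945 in confined cPLA_2_ WT libraries. Of the other DC markers, *H2-Ab1* and *Ciita* were higher in confined cPLA_2_ KO libraries and the rest lower. *Adgre1*, *Siglecf*, *Ccr3* and *Gata2* were lower, against the sums of their lists. The part of these cell types in the differences between the genotypes was not tested.

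LPS-treated cells served as a reference for activation by a microbial product. Over both labels, 8 of 10 members were higher than in nonconfined cells of both genotypes, against 37.2% of genes tested, and *Dusp6* and *Dusp7* were lower, against 34.3%. Past a 2-fold change, 6 were higher, against 15.6% of genes, and *Dusp7* was lower, against 13.4%. *Dusp6* also passed 2-fold with TMM scaling, with the same total, by edgeR and without the library labelled cPLA_2_ KO replicate 3. The largest log2 fold changes were 5.26 for *Dusp2*, 3.97 for *Dusp4*, 3.25 for *Dusp8* and 2.95 for *Dusp1*, with limma adjusted p-values of at most 3.98e-10. Next in size were *Dusp16*, which rose 6.51-fold, and *Dusp5*, which rose 4.96-fold. *Dusp7* fell by 1.88 and *Dusp6* fell by 0.97 on the log2 scale. *Dusp3* (0.17) and *Dusp10* (0.45) were higher with the deposited size factors, but turned to -0.33 and -0.04 when each library was scaled to the same total, where the median of all genes tested was itself -0.46. With the libraries split by label, 8 members were higher and 2 lower in those labelled cPLA_2_ WT, against 33.4% and 29.4% of genes tested, where *Dusp3* turned to -0.25 with the same total. In those labelled cPLA_2_ KO, 6 were higher and 2 lower, against 33.4% and 30.1%, and *Dusp3*, which was not called, turned to -0.40 with the same total. The call of *Dusp10* in those labelled cPLA_2_ WT ended with the same total (limma adjusted p = 0.51), and in those labelled cPLA_2_ KO it was called only without nonconfined cPLA_2_ KO replicate 3 (limma adjusted p = 0.0311). An alternative chosen after seeing the data left out the libraries labelled cPLA_2_ WT replicate 2 and cPLA_2_ KO replicate 1, which had the lowest *Ddx3y*. It called 10 members over both labels, 10 in those labelled cPLA_2_ WT and 8 in those labelled cPLA_2_ KO, the same counts as with all libraries, and gave log2 fold changes over both labels of 5.21 for *Dusp2*, 4.10 for *Dusp4* and 2.91 for *Dusp1*. The share of all genes called under this alternative is not given here, so nothing about the members is read from these counts. The LPS-treated libraries resembled each other across the labels. Of the 6 ways to pair them, cPLA_2_ WT replicates 1, 2 and 3 with cPLA_2_ KO replicates 2, 1 and 3 gave the lowest summed chi-square per gene of recovered reads, 25.7 against 37.8 to 94.5, and *Ddx3y* followed the same pairs. Where these pairs came from is not known, and the 6 libraries may not be independent. In an alternative chosen after seeing the data, with each pair averaged, 8 members were higher and 2 lower, as with 6 libraries, against 35.1% and 32.7% of genes, with limma adjusted p-values of at most 0.00401. Between the labels, limma called 0 members in either direction, against 0% of genes tested higher and 0% lower. At an unadjusted p under 0.05 limma called 0 members, with 355 genes higher and 535 lower, and edgeR and DESeq2 called 0 members and 0 genes. A test within the pairs, also chosen after seeing the data, called 0 members and 0 genes, with 490 genes higher and 676 lower at an unadjusted p under 0.05. In all 3 pairs *Dusp2*, *Dusp10* and *Dusp16* were lower and *Pla2g4a* was higher in the library labelled cPLA_2_ KO. The libraries of *Dusp10* and *Dusp16* did not overlap between the labels. The other members went in both directions among the pairs. How many of all genes kept a single direction or did not overlap was not counted, so nothing about the members is read from this. The log2 differences were -0.05, -0.22 and -0.11 for *Dusp2*, *Dusp10* and *Dusp16*, with limma adjusted p-values within the pairs of 0.993, 0.894 and 0.912. No difference was thus called, which does not exclude a small difference between the labels.

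**Figure D3:**
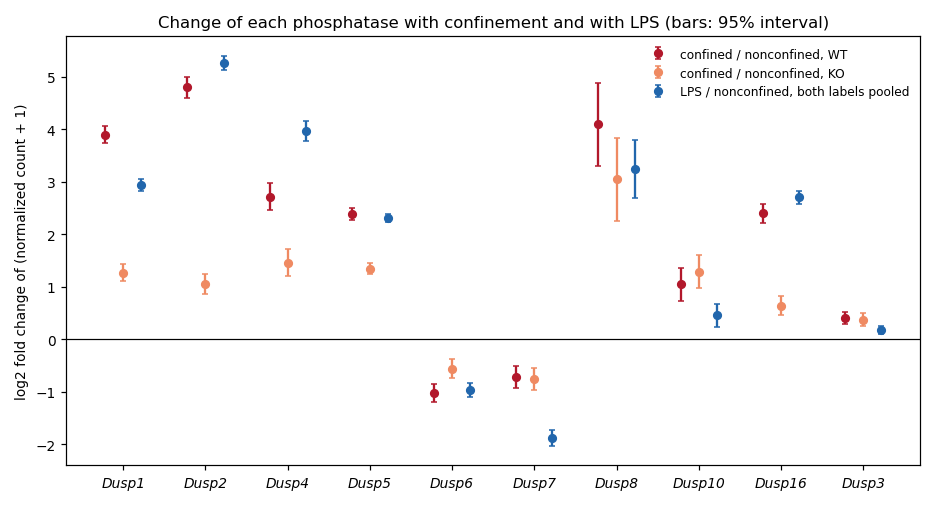
Log2 fold change of normalized count + 1 for each phosphatase with confinement in cPLA_2_ WT cells, with confinement in cPLA_2_ KO cells and with LPS over both labels, with 95% intervals from limma as bars. *Dusp1* changed by 3.90, 1.27 and 2.95 in this order and *Dusp7* by -0.72, -0.76 and -1.88, and the LPS values of *Dusp3* and *Dusp10* turned negative when libraries were scaled to the same total.

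The changes with confinement and with LPS share the nonconfined libraries as controls and are given side by side only. Confined cPLA_2_ WT libraries were therefore set directly against the libraries labelled LPS cPLA_2_ WT. Here 4 members were higher in confined cells, against 21.6% of genes tested, and 3 were lower, against 27.2%. *Dusp7* was higher by 1.24 (SE 0.10, limma adjusted p = 1.09e-09) and *Dusp1* by 0.78, whereas *Dusp4* was lower, as given above. *Dusp2* was at -0.43 and *Dusp16* at -0.29, calls that ended when libraries were scaled to the same total, at -0.14 (limma adjusted p = 0.218) and -0.0015 (limma adjusted p = 0.991). *Dusp10* (0.42) and *Dusp3* (0.14) were also called higher. The call of *Dusp10* ended without confined cPLA_2_ WT replicate 1 (limma adjusted p = 0.104) and without the libraries labelled LPS cPLA_2_ WT replicate 2 (limma adjusted p = 0.0706) or replicate 3 (limma adjusted p = 0.0628). That of *Dusp3* ended without confined cPLA_2_ WT replicate 1 or 3 and without the libraries labelled LPS cPLA_2_ WT replicate 1 or 3, with limma adjusted p-values of 0.0896 to 0.198, and also with no filter on low values (limma adjusted p = 0.079) and with the compared groups alone (limma adjusted p = 0.0699). *Dusp5*, *Dusp6* and *Dusp8* were not called, with log2 differences of 0.11, -0.06 and 0.69 and 95% intervals of 0.00 to 0.22, -0.23 to 0.12 and -0.09 to 1.48. *Dusp5* was called higher with the same total per library (adjusted p = 2.52e-06), TMM (adjusted p = 0.00547), edgeR (adjusted p = 0.00598) and DESeq2 (adjusted p = 0.0178), and without the library labelled LPS cPLA_2_ WT replicate 2 (limma adjusted p = 0.0128). *Dusp8* was called higher with the same total (adjusted p = 0.0368), a pseudocount of 5 (adjusted p = 0.0455), edgeR (adjusted p = 0.0236), DESeq2 (adjusted p = 0.0125) and the compared groups alone (adjusted p = 0.0133). *Dusp6* turned to 0.23 with the same total and was then called higher (limma adjusted p = 0.0339).

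Across the 18 libraries the members differed in how closely their levels followed each other. Pearson's r of log2(normalized count + 1) was 0.995 between *Dusp2* and *Dusp16*, 0.979 between *Dusp1* and *Dusp5* and 0.852 between *Dusp3* and *Dusp10*. *Dusp6* ran opposite to *Dusp5*, with r = -0.975. These values describe 18 libraries in 6 conditions of 3, so that differences between the conditions enter them. How much of each value came from those differences was not tested. Of the other genes with a symbol and a mean of at least 100 normalized counts, those most like *Dusp1* were *Errfi1*, an inhibitor of the EGF receptor (r = 0.995), *Dnah2* (r = 0.994) and *Arih2* (r = 0.993). *Dusp2* was most like *Nfkb1*, the p105 precursor of NF-κB (r = 0.999), *Nos2*, the inducible nitric oxide synthase (r = 0.998), and *Ciapin1* (r = 0.998). *Dusp16* was most like *Rab11fip1*, *Nfkb1* and *Dusp2* (r = 0.998, 0.997 and 0.995). For *Dusp5* these genes were *Cd14*, the LPS co-receptor, *Gna13* and *Il1rn* (r = 0.998, 0.996 and 0.996), and for *Dusp4* they were *Dram1*, *Hspa1a* and *Tbk1* (r = 0.998, 0.996 and 0.995). Such values were not rare. Of 10553 genes compared, 602 had r above 0.95 with *Dusp2*, 640 with *Dusp4*, 404 with *Dusp5* and 246 with *Dusp1*, but 2 with *Dusp3* and 0 with *Dusp10*. The remaining members were most like *Fam53b*, *Cd3eap* and *Myo18a* (*Dusp6*, r = 0.980 to 0.985), *Unc119b*, *Casp2* and *Paics* (*Dusp7*, r = 0.989 to 0.993), *Dop1b*, *Rbms1* and *Ndel1* (*Dusp8*, r = 0.968 to 0.969), *Capn2* and *Htatip2* (*Dusp10*, r = 0.948 for each), and *LTO1*, *Pttg1ip* and *Asph* (*Dusp3*, r = 0.946 to 0.957).

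Other genes of the pathway were taken from 9 lists with 82 genes, of which 76 passed the filter on low values. With confinement in cPLA_2_ WT cells, 28.2% of all genes tested were higher and 28.4% lower. In cPLA_2_ KO cells these shares were 22.8% and 23.4%, and the counts of each list stand beside them. Of the 9 transcripts known to respond to ERK, 4 were higher and 5 lower in confined cPLA_2_ WT cells and 3 were higher and 5 lower in confined cPLA_2_ KO cells, with median log2 fold changes of -1.71 and -0.82. The list was thus split. *Fosl1*, a subunit of AP-1, had 27.4, 18.8 and 35.4 normalized counts in nonconfined and 319, 284 and 224 in confined cPLA_2_ WT libraries, and 43.9, 34.4 and 38.8 and 201, 196 and 170.4 in cPLA_2_ KO libraries, with log2 fold changes of 3.32 and 2.25 and an interaction of -1.07 ± 0.25 (SE, limma adjusted p = 0.00296). *Fos* rose by 1.92 in cPLA_2_ WT and 1.00 in cPLA_2_ KO cells with confinement and fell by 0.53 with LPS over both labels. *Egr1*, an immediate early transcription factor, fell by 2.06 in cPLA_2_ WT cells and fell by 2.63 in cPLA_2_ KO cells, and *Ccnd1*, which encodes cyclin D1, fell by 2.32 and, in cPLA_2_ KO cells, fell by 2.42. *Phlda1* rose (1.14 and 0.65) and *Etv5*, a transcription factor downstream of growth factor signals, fell (-1.73 and -1.14). *Egr1*, *Ccnd1* and *Etv5* thus fell, as *Dusp6* and *Dusp7* did, whereas *Fosl1* and *Phlda1* rose, as the nuclear phosphatases did.

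Transcripts of the kinases themselves had medians nearer to that of all genes. With confinement in cPLA_2_ WT cells, 5 were higher and 1 lower among 9 tested genes of the ERK module, 5 were higher and 4 lower among 10 of the p38 module, 4 were higher and 2 lower among 7 of the JNK module and 1 was higher and 2 lower among 4 of the ERK5 module, with median log2 fold changes of 0.15, 0.15, 0.38 and -0.06 beside -0.01 for all genes tested. In cPLA_2_ KO cells, in the same order, 4 were higher and 1 lower, 4 were higher and 2 lower, 2 were higher and 0 lower and 2 were higher and 0 lower, with medians of 0.05, 0.05, 0.14 and 0.08. The largest rise of the ERK module in cPLA_2_ WT cells was that of *Map3k8*, the kinase that links Toll-like receptors to ERK, which had 468, 498 and 464 normalized counts in nonconfined and 1297, 1198 and 1318 in confined cPLA_2_ WT libraries, and 545, 569.7 and 623 and 715, 775 and 678 in cPLA_2_ KO libraries. It rose by 1.41 for cPLA_2_ WT cells and by 0.32 for cPLA_2_ KO cells on the log2 scale, with an interaction of -1.09 ± 0.10 (SE, limma adjusted p = 2.03e-08). *Map3k5*, which activates p38 and JNK under stress, rose by 1.24 in cPLA_2_ WT and 0.22 in cPLA_2_ KO cells, *Map2k3*, the kinase above p38, by 0.63 and 0.54, and *Mapk8*, which encodes JNK1, by 0.85 in cPLA_2_ WT cells with 0.01 in cPLA_2_ KO cells, which was not called. *Mapk14*, which encodes p38α, fell by 0.71 in cPLA_2_ WT cells and fell by 0.28 in cPLA_2_ KO cells. Of the 10 kinases activated by MAPKs, 5 were higher and 4 lower in cPLA_2_ WT and 3 were higher and 4 lower in cPLA_2_ KO cells, with medians of 0.09 and 0.06. Among them *Mapkapk2*, the p38 target that stabilizes cytokine mRNA, rose by 0.86 in cPLA_2_ WT cells and was not called in cPLA_2_ KO cells, with an interaction of -0.86 ± 0.09 (SE, limma adjusted p = 1.13e-07), whereas *Rps6ka2* rose by 1.40 and 1.26.

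Other brakes on the pathway were compared in the same way. Of 6 Sprouty and Spred genes tested, which inhibit the step from receptors to ERK, 3 were higher and 2 lower in cPLA_2_ WT and 1 was higher and 2 lower in cPLA_2_ KO cells, with medians of 0.16 and -0.05, and *Spred1* rose by 0.74 in cPLA_2_ WT cells and was at 0.01 in cPLA_2_ KO cells, which was not called. Of 9 MAPK phosphatases of other families or not in the 10 members, 5 were higher and 1 lower in cPLA_2_ WT and 5 were higher and 1 lower in cPLA_2_ KO cells, with medians of 0.59 and 0.29. *Ptpn7*, a tyrosine phosphatase of ERK in blood cells, fell by 0.95 in cPLA_2_ WT cells and fell by 0.34 in cPLA_2_ KO cells, with an interaction of 0.61 ± 0.09 (SE, limma adjusted p = 9.77e-06). Of 12 tested genes on a list of other dual-specificity phosphatases, 5 were higher and 4 lower in cPLA_2_ WT and 3 were higher and 1 lower in cPLA_2_ KO cells, with medians of 0.07 and 0.11. Among them *Dusp14*, a small phosphatase that dampens T cell signalling, had a change of the size of those of *Dusp1* and *Dusp2*. It had 71.6, 38.4 and 64.9 normalized counts in nonconfined cPLA_2_ WT, 1486, 1381 and 1429.7 in confined cPLA_2_ WT, 70.5, 89.4 and 58.2 in nonconfined cPLA_2_ KO and 123, 111 and 124 in confined cPLA_2_ KO libraries. Its log2 fold change amounted to 4.64 ± 0.22 (SE, limma adjusted p = 1.23e-13) for cPLA_2_ WT cells and 0.73 ± 0.22 (SE, limma adjusted p = 0.0109) for cPLA_2_ KO cells, and the interaction was -3.92 ± 0.32 (SE, limma adjusted p = 2.5e-09). With LPS over both labels, 6 were higher and 3 lower of the ERK module, 5 were higher and 4 lower of the p38 module, 6 were higher and 0 lower of the JNK module, 1 was higher and 2 lower of the ERK5 module, 6 were higher and 4 lower of the MAPK-activated kinases, 4 were higher and 1 lower of the Sprouty and Spred genes, 3 were higher and 6 lower of the ERK-responsive transcripts, 4 were higher and 4 lower of the other MAPK phosphatases and 5 were higher and 4 lower of the other dual-specificity phosphatases. Their median log2 fold changes were 0.22, 0.11, 0.31, -0.14, 0.24, 0.97, -0.84, 0.52 and -0.09 in this order, beside 0.02 for all genes tested. Of all genes tested, 37.2% were higher and 34.3% lower with LPS over both labels. For the interaction of confinement and genotype, the genes called with a positive value numbered 0, 1, 2, 0, 2, 0, 1, 1 and 1 in the same order, and those with a negative value 2, 2, 3, 0, 2, 1, 5, 3 and 3. The shares of all genes tested were 10.2% with a positive and 15.6% with a negative call. The medians of the interaction were -0.10, -0.01, -0.09, 0.13, -0.12, -0.16, -0.49, -0.22 and 0.04, beside 0.05 for all genes and -1.05 for the 10 members.

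The bases before the starts of the members were read from GRCm39 because several of them rose together. For each of 21770 protein-coding genes the 250 bases upstream of the GENCODE canonical transcript were searched on both strands for the cyclic AMP response element TGACGTCA, its half-site TGACG, the AP-1 element TGANTCA, the E-box CACGTG, the GC box GGGCGG and TATAAA, and for an NF-κB element and the CArG box of serum response factor by name. TGACGTCA was found in 1.69% of all windows and in those of *Dusp1* and *Dusp8*, where *Dusp8* held it at 2 places. Its half-site, which each full element contains, was in 18% of all windows and in those of *Dusp1*, *Dusp4*, *Dusp5* and *Dusp8*. The CArG box was in 1.4% of all windows and, among the members, in that of *Dusp5*, at 2 adjoining places. The E-box was in 6.26% of all windows and in those of *Dusp1* and *Dusp7*, and the GC box in 36.3% of all and in 9 of 10 members, the exception being *Dusp6*. AP-1, TATAAA and NF-κB letters were in 6.17%, 11.9% and 7.62% of all windows and in 0 of 10 members. The members' windows were rich in G and C, from 56.0% to 82.4%, beside a median of 53.2% over all windows. The exons of 8 of 10 members, *Dusp4* and *Dusp7* being the exceptions, overlap exons of a gene on the opposite strand in GENCODE, by up to 808 bases. The libraries were strand-specific, but the sources used here do not say whether counting used the strand, so reads of such a pair cannot be told apart. A match is a description of letters and not a site of binding, and a missing match says only that these letters were not in the window. Shown are the windows of *Dusp1* and *Dusp8*, which share the full element, of *Dusp5*, which has the CArG boxes, and of *Dusp2*, which rose as they did and matched the GC box only. They lie at chr17:26727507-26727743 on the minus strand, chr7:141649053-141649302 on the minus strand, chr19:53517282-53517531 on the plus strand and chr2:127177707-127177956 on the plus strand of GRCm39, in sequence outside the annotated coding exons, and exons of noncoding genes reach into each of them. Each is written 5′ to 3′ in the direction of its gene, with capitals for every match to a searched element, and that of *Dusp1* ends where an annotated transcript begins.
Dusp1: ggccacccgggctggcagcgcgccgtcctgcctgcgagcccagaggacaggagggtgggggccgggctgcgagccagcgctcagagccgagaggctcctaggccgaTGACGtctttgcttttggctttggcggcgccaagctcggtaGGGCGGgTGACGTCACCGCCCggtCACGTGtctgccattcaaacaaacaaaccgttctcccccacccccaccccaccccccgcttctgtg
Dusp8: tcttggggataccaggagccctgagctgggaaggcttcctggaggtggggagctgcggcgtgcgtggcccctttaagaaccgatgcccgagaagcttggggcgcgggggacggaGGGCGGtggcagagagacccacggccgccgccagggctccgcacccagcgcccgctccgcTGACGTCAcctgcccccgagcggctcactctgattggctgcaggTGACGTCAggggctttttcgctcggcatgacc
Dusp5: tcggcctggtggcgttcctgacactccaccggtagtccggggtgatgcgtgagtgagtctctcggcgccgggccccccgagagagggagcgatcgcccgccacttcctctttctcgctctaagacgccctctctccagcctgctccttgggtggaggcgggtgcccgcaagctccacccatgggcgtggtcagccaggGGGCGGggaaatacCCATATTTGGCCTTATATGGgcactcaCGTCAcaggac
Dusp2: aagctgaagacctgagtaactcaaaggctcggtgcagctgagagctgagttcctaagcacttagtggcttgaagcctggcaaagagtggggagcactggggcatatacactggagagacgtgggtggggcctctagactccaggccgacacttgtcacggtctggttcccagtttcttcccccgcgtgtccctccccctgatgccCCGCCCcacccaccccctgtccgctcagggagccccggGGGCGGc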

How the data were processed

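The signal values are normalized counts for each gene, which the authors made, per the submitters' notes, with STAR 2.7.5a, featureCounts 1.5.0 and DESeq2 under R 3.5.3 on mm39 (GRCm39); the study's methods name the FAST DB annotation. Dividing each library's values by their common step gave whole read numbers for 100% of them, within 0.01 of a read. All 18 libraries entered 1 limma fit (limma 3.58.1, R 4.3.3, lmFit followed by contrasts.fit and a trended eBayes) on log2(normalized count + 1), with a mean for each of 6 groups, two-sided tests and Benjamini-Hochberg adjustment over the 17875 genes that passed the filter. A call is an adjusted p under 0.05, and for 5 comparisons also an absolute log2 fold change above 1. The procedure was tested on simulated data. Tried instead were a pseudocount of 0.5 or 5, a filter at 100 or none at all, scaling by TMM or to the same total, edgeR 4.0.16 and DESeq2 1.42.0 on recovered reads, the compared groups alone, a replicate block, each library left out, and a fold change of 1.5 with an unadjusted p of 0.05. In confined against nonconfined WT cells, edgeR called 5283 genes higher and 4819 lower, and DESeq2 5219 and 5048. Named were all members, *Pla2g4a* and the genes that check the labels, up to 3 genes with the largest rise and 3 with the largest fall with confinement in WT cells from each list among called genes whose mean was 100 normalized counts or more, and up to 3 genes most like each member; 1 such gene is not reported here. Members and lists were chosen with earlier results of these data known. Positions and promoters come from GRCm39 with GENCODE vM39, the build named by the submitters. Figures were drawn with matplotlib 3.10.9, and tables were made with pandas 2.3.3 under Python 3.11.15.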

Additional observations from a re-analysis of the deposited data

Results flagged for a closer look

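The change with confinement differed between the genotypes, by the interaction test, for 29 of the members and named genes of the pathway lists. Of all genes tested, 10.2% were called with a positive and 15.6% with a negative interaction. The named list genes were picked for large changes with confinement in cPLA_2_ WT cells, which enter the interaction. The count of 29 is therefore not set against these shares. The genes named as most like a member are not part of this count. The counts of all list genes called are in the report, and those not named there are not listed here. Among the phosphatases the interaction on the log2 scale was -3.75 for *Dusp2*, -2.63 for *Dusp1*, -1.76 for *Dusp16*, -1.26 for *Dusp4* and -1.04 for *Dusp5*, where a negative value is a smaller rise or a larger fall in cPLA_2_ KO cells, and 0.47 for *Dusp6*. Among the other named genes it was -3.92 for *Dusp14*, -1.09 for *Map3k8*, -1.07 for *Fosl1*, -1.02 for *Map3k5*, -0.92 for *Fos*, -0.86 for *Mapkapk2*, -0.84 for *Mapk8*, -0.73 for *Spred1*, -0.64 for *Ssh1*, -0.57 for *Egr1*, -0.53 for *Map3k1*, -0.49 for *Phlda1*, -0.40 for *Ppm1b*, -0.37 for *Mapkapk3*, -0.27 for *Ppp2ca*, -0.22 for *Map2k4* and -0.22 for *Ppm1a*. Positive values were 0.30 for *Rps6ka1*, 0.32 for *Map2k7*, 0.34 for *Mapk8ip3*, 0.42 for *Mapk14*, 0.57 for *Dusp18* and 0.61 for *Ptpn7*. With the same total per library, the negative interactions of *Map3k1*, *Map2k4*, *Mapkapk3*, *Ppp2ca* and *Ppm1a* were no longer called. Leaving out single libraries also ended the calls of *Map2k4*, *Map2k7*, *Ppm1a* and, without confined cPLA_2_ WT replicate 2, *Dusp18*. No explanation was weighed for these differences, and groups of 3 libraries were not tested for single libraries that lie apart.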

How the results depend on the processing

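Of 283 values of the counts of members called under the alternatives, 275 were within 1.5 times the reported count. The exceptions were in nonconfined cPLA_2_ KO against nonconfined cPLA_2_ WT cells, where the 3 calls became 1 with no filter on low values, 1 with the compared groups alone, 0 when the call was an unadjusted p of 0.05 past a 1.5-fold change, and 0 to 3 when single libraries were left out, and in confined cPLA_2_ WT cells against the libraries labelled LPS cPLA_2_ WT, where 7 became 3 when the call was an unadjusted p of 0.05 past a 1.5-fold change. The cause was not tested. Of 1780 values of single members, 1717 counted as unchanged, 35 lost a call, 23 gained one and 5 reversed. A value without a call before and after counted as unchanged even where its sign changed. With the same total per library this was so for the interactions of *Dusp3* (-0.03 to 0.16) and *Dusp7* (-0.04 to 0.15). It was also so for *Dusp10* in the libraries labelled LPS cPLA_2_ KO (0.28 to -0.20). Without single libraries, *Dusp8* in nonconfined cPLA_2_ KO against cPLA_2_ WT cells went from 0.19 to as low as -0.31. The 5 values counted as reversed all did so with the same total per library. That scaling moved the median of all genes tested to -0.23 in confined cPLA_2_ WT, -0.47 and -0.44 in the libraries labelled LPS cPLA_2_ WT and cPLA_2_ KO, and -0.46 over both labels. The median was 0.24 for the interaction, 0.19 in confined cPLA_2_ KO against cPLA_2_ WT and 0.26 in confined cPLA_2_ WT against LPS cPLA_2_ WT. *Dusp3* was at -0.25, -0.40 and -0.33 in the LPS comparisons by label and over both labels (0.14 relative to that median in the last). *Dusp10* over both labels was at -0.0397 (relative 0.42) and *Dusp6* in confined cPLA_2_ WT against LPS cPLA_2_ WT at 0.23 (relative -0.03). Of 1596 values of other named genes of the lists, 1544 counted as unchanged, 35 lost and 17 gained a call. With a replicate block the interaction of *Map2k4* ended as a call at -0.22 (limma adjusted p = 0.0523) and no member's call changed. For libraries of the same number, deviations from the group mean correlated at 0.34, 0.21 and 0.04 between confined cPLA_2_ WT and cPLA_2_ KO cells. Each value was lower in the other pairs of groups compared. The labels do not say what the replicate numbers stand for. Without the 2 LPS libraries with the lowest *Ddx3y*, 8 members were called past a 2-fold change over both labels, against 7 with all libraries. The share of all genes past a 2-fold change without those 2 libraries is not given here. Recovered reads of at least 33027230 per library leave few counts for *Dusp8* in nonconfined cells, which limits its fold changes.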
